A study of Arabidopsis thaliana with 4 samples.

Results

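The genes described here are 227 single Arabidopsis thaliana genes whose transcript level was between 2-fold and 8-fold lower in apetala3 inflorescences than in wild-type inflorescences. They were chosen by the measured values themselves. A gene had to be named alone by its probe or probes, to have a value on all 4 arrays, to have a mean log2 ratio of apetala3 over wild type above -3 and at most -1, and to be below 0 on every array. Of 5443 genes named alone by a probe, 5170 had a value on all 4 arrays, and 236 of these met the criteria. Of the 236, 9 belong to gene families or floral pathways left out by symbol, which leaves 227.

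Each array compared total RNA of apetala3 inflorescences with total RNA of wild-type inflorescences, 1 in each channel. On arrays 1 and 3 apetala3 was in channel 1, and on arrays 2 and 4 it was in channel 2. The labels give no allele, accession, age or growth condition for either genotype, and nothing in them tells if separate plants or RNA extracts were used for the 4 arrays. The spread between arrays may therefore be technical. Values below are log2 ratios, apetala3 divided by wild type, unless a fold is named. The labels do not say which channel is the numerator. The direction is called likely because 6 genes of the tapetum list, tissue that a flower without stamens lacks, had a median of -2.93 with channel 2 as the numerator, and with the other choice every lower below would read higher. No probe named AP3 or PI alone, so the genotype was not checked against the mutated gene.

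The MADS-box protein APETALA3 pairs with PISTILLATA, and together they give petals and stamens their identity. Flowers that fully lack this function make sepals where petals belong and carpels where stamens belong, so they lack anthers, pollen and petal tissue. Since the labels give no allele, how far this holds for the flowers used is not known. In RNA of whole inflorescences, fewer cells of a type and less RNA per cell cannot be told apart.

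The 227 means ran from -2.998 for AT3G60710 to -1.0002 for AT5G51390, with a median of -1.70, which is 3.24-fold lower in apetala3. There were 39 genes at or below -2.5, 41 from there to -2, 62 from there to -1.5 and 85 from there to -1, so the smaller decreases were the more numerous. On every single array 120 of the 227 were below -1. The SD over the 4 arrays had a median of 0.51 and ran from 0.05 to 1.97, against a median of 0.24 over all 5170 genes and of 0.70 over the 68 genes reduced at least 8-fold by the same criteria. The rule fixed these means, so they are given as a description. In limma's fit across all 25588 genes and probes, 211 of the 227 had an adjusted p under 0.05, where 10.1% of all genes and probes, and 8.41% of genes named alone, were called lower. At an adjusted p under 0.01 there were 139, where 5.24% of all genes and probes were called lower. The same contrast chose the genes, so nothing is read from either count. The 16 not called had SDs of at least 0.95.

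**Figure D1:**
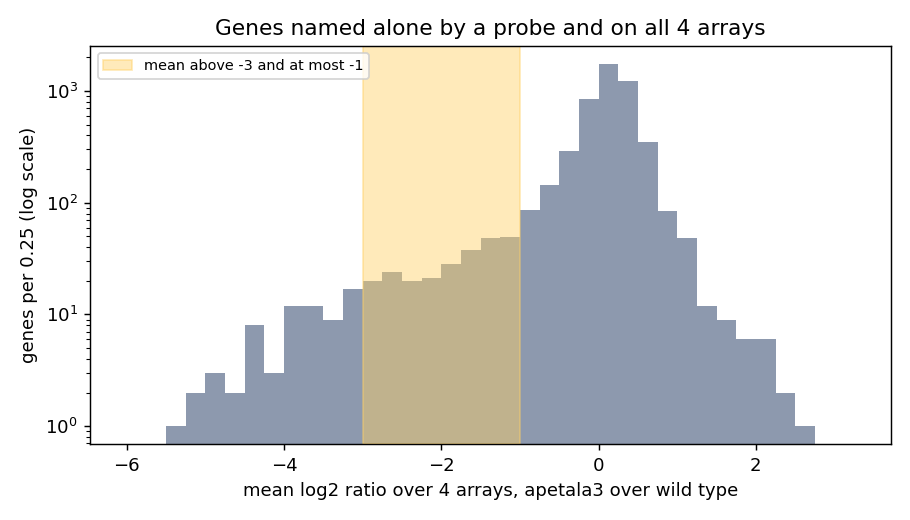
Histogram of the mean log2 ratio of apetala3 over wild type for the 5170 genes named alone by a probe and measured on all 4 arrays, in steps of 0.25 on a logarithmic count axis. The shaded band runs from -3 to -1 and holds the 227 genes, the 9 left out by symbol and 12 genes that were not below 0 on all 4 arrays.

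The same limits turned upward gave far fewer genes. Between 2-fold and 8-fold higher in apetala3, and above 0 on all 4 arrays, there were 72 genes, or 1.39% of 5170, against 4.56% for the 236 lower. Empty spots, which carry no probe, were set beside both directions. Those on all 4 arrays had a median of 0.57, while gene probes had medians of 0.11, 0.12, 0.10 and 0.08 on arrays 1 to 4. The empty spots are thus not centred as the genes are. How far this shifts their shares in the 2 bands was not tested. Of 424 empty spots, 113 had a value on all 4 arrays, and 4 of these fell in the lower band, 3.54% with an exact 95% Clopper-Pearson interval of 0.973 to 8.82. That interval, which covers counting error only, holds the genes' share. In the higher band there were 14 empty spots, 12.4%. The 4 empty spots in the lower band had means of -2.91, -2.42, -2.12 and -1.25, with SDs of 1.60, 1.09, 0.31 and 0.29, and 0 empty spots were at or below -3. Only 26.7% of empty spots had a value on all 4 arrays, against 94.98% of genes. The part of spots without a transcript signal in the 227 was not tested.

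Of the 227, 23 carry a gene symbol and 204 only a locus tag, a share with symbols of 10.1% against 10.02% of all 5170 genes. The 23 are described first, by role, and were grouped after their values were seen.

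**Figure D2:**
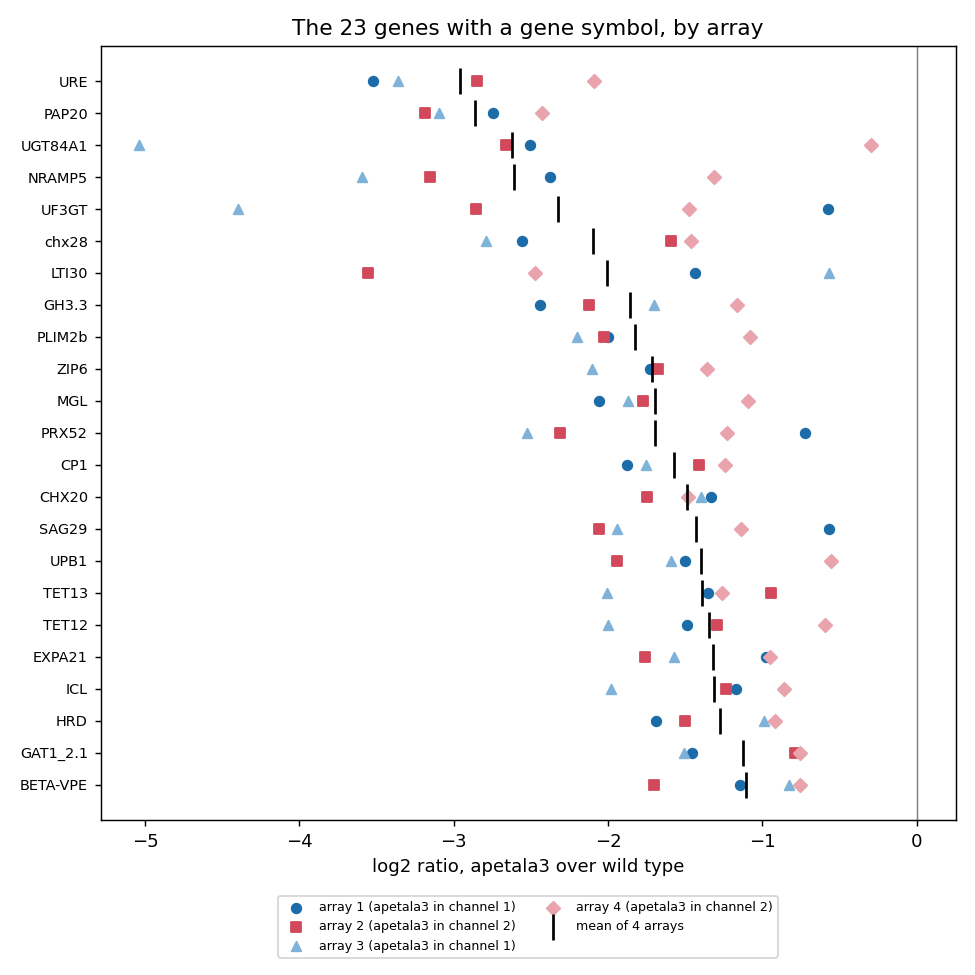
Log2 ratio of apetala3 over wild type for each of the 23 genes with a symbol, lowest mean at the top, with 1 point per array (marker and colour by array) and a vertical bar at the mean. Array 4 is often the point nearest 0, and UGT84A1, UF3GT and LTI30 are spread the widest.

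Membrane transporters made up 5 of the 23. NRAMP5, of a family that moves divalent metal ions, had ratios of -2.38, -3.15, -3.60 and -1.31 on arrays 1 to 4, a mean of -2.61 ± 1.0 (SD, n = 4 arrays, as for the means below) and a 6.10-fold lower level in apetala3. Its array 4 value was the nearest to 0 and its array 3 value the lowest. ZIP6, of the zinc- and iron-regulated transporter family, was more even, at -1.73, -1.67, -2.10 and -1.36, with a mean of -1.72 ± 0.31. Only 1 other ZIP gene was measured alone, ZIP9, whose mean was -0.23 ± 0.13 (SD, n = 4 arrays; limma adjusted p = 0.157).

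The cation/proton exchangers (CHX) hold both even and uneven genes. CHX20, known from guard cells where it takes part in osmotic control, was among the 10 of the 227 with the smallest SD. Its ratios were -1.33, -1.75, -1.40 and -1.48, with a mean of -1.49 ± 0.18 and a 2.81-fold lower level. For chx28 the ratios were -2.55, -1.59, -2.79 and -1.46 and the mean -2.10 ± 0.67, with both arrays that had apetala3 in channel 1 lower than both that had it in channel 2. CHX16, the other CHX gene measured alone, was higher in apetala3, at 0.45 ± 0.10 (SE, limma adjusted p = 0.0309), and it no longer passed when array 1, 2 or 3 was left out (limma adjusted p = 0.112, 0.0989 and 0.0937). A probe that lists chx28 together with CHX15 had a mean of 1.12, in the opposite direction to the probe of chx28 alone.

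SAG29, also named SWEET15, is a sucrose transporter known from senescing tissue and seeds. Its ratios of -0.57, -2.06, -1.94 and -1.14 gave a mean of -1.43 ± 0.70 and a 2.69-fold lower level, and array 1 was the nearest to 0. It lies between the other SWEET genes measured alone. SWEET9 and SWEET8 were at -4.79 ± 0.25 and -3.97 ± 0.36 (SE, limma adjusted p = 0.000576 and 0.00204), while SWEET2, at -0.11, and SWEET10, at 0.37, did not pass the threshold (limma adjusted p = 0.643 and 0.288).

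Enzymes that release or recycle nitrogen, sulphur, phosphate and carbon made up another 5. URE, the urease that splits urea into ammonia and carbon dioxide, was the lowest of the 23, with ratios of -3.52, -2.85, -3.36 and -2.09 on arrays 1 to 4. Its mean was -2.96 ± 0.64, 7.76-fold lower in apetala3, and all 4 arrays were below -2. PAP20, a purple acid phosphatase, had nearly the same mean with a smaller spread, at -2.74, -3.18, -3.10 and -2.43 and -2.86 ± 0.35. PAP20 was likewise below -2 on all 4 arrays.

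MGL, methionine gamma-lyase, which breaks methionine down, had ratios of -2.06, -1.77, -1.87 and -1.09 and a mean of -1.70 ± 0.42, the median value of all 227. GAT1_2.1, a glutamine amidotransferase, was at -1.46, -0.79, -1.51 and -0.76, with a mean of -1.13 ± 0.41. Its arrays formed 2 pairs by channel, lower with apetala3 in channel 1. ICL, isocitrate lyase of the glyoxylate cycle that turns lipid carbon into sugar precursors, had a mean of -1.31 ± 0.48 over -1.17, -1.23, -1.98 and -0.86. That mean joins 2 probes that disagree, at -2.67 and 0.04, so the value of ICL is not one that either probe showed. A probe that lists ICL with 3 other genes had a mean of -0.06, and a probe that lists GAT1_2.1 with 2 other genes had a mean of -0.27, both above -1.

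Both enzymes that attach sugars to small molecules were low on average and unstable between arrays. UGT84A1, which glucosylates hydroxycinnamic acids such as sinapate, had ratios of -2.504, -2.66, -5.04 and -0.29 and a mean of -2.62 ± 1.94. UF3GT, also named UGT79B1, which adds a sugar to anthocyanins, had -0.57, -2.86, -4.40 and -1.48 and -2.33 ± 1.67. These 2 were the only genes with a symbol among the 16 not called by limma. Array 3 was the lowest for both, while the array nearest 0 was array 4 for UGT84A1 and array 1 for UF3GT. A separate probe that lists UF3GT with 1 other gene, AT5G54010, was below 0 on all 4 arrays, at -2.82, -2.63, -3.33 and -2.12. These values varied less than those of UF3GT alone, and on arrays 2 and 3 they were nearer 0.

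The other 17 UGT genes measured alone had means from -0.70 to 1.204, with a median of 0.23. UGT73C1 was higher, at 1.204 ± 0.14 (SE, limma adjusted p = 0.00507), and this call held without any 1 array. UGT85A5, at 0.42, and UGT74D1, at -0.47, were called over all 4 arrays (limma adjusted p = 0.0344 and 0.0335). With 1 array left out, UGT85A5 passed only without array 4 and UGT74D1 never passed, with limma adjusted p-values up to 0.140 for both. Of these 17 UGT genes, 0 were at or below -1.

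Proteases gave 2 genes. CP1, a papain-type cysteine protease also named RDL1, had ratios of -1.88, -1.41, -1.76 and -1.24 and a mean of -1.57 ± 0.30. BETA-VPE, a vacuolar processing enzyme known for maturing seed storage proteins, was near the upper end of the band, at -1.14, -1.70, -0.83 and -0.76 and -1.11 ± 0.43. Array 2 was its lowest. The 3 probes that list all 4 VPE genes together, 1 of them on 3 arrays, had means of -0.02, 0.19 and 0.14.

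Cell wall proteins gave another 2. PRX52, a class III peroxidase known for a part in lignin formation, had ratios of -0.72, -2.31, -2.52 and -1.23, a mean of -1.70 ± 0.86 and an array 1 value well above those of arrays 2 and 3. A probe that lists PRX52 with AT5G58390 and AT5G58400 did not show the decrease, with a mean of 0.18. EXPA21, an alpha-expansin, of the proteins that loosen growing walls, had -0.98, -1.76, -1.58 and -0.95 and -1.32 ± 0.41. Its arrays 1 and 4 were just above -1, and arrays 2 and 3 below -1.5. Alpha-expansins measured alone went both ways. EXPA20 was higher, at 0.90 ± 0.10 (SE, limma adjusted p = 0.00338), and EXPA24, on 3 arrays, was lower, at -3.34 ± 0.28 (SE, limma adjusted p = 0.00328). A probe listing EXPA21, EXPA23, EXPA24 and EXPA25 together had a mean of -2.59.

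**Figure D3:**
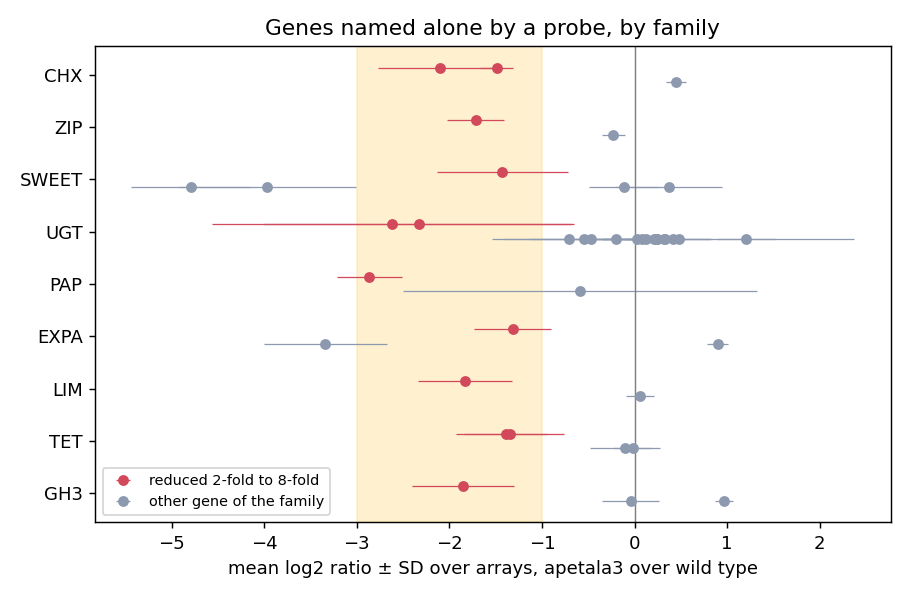
Mean log2 ratio of apetala3 over wild type with the SD over arrays, for genes named alone by a probe in 9 families, with the genes of the band in red and the other genes of each family in grey. The shaded band runs from -3 to -1. In the UGT row 2 genes lie in the band and 17 others between -0.70 and 1.204.

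Genes of the cytoskeleton and of membrane organisation were 3. PLIM2b, a LIM-domain protein that bundles actin filaments in pollen, had ratios of -2.001, -2.03, -2.20 and -1.08 and a mean of -1.83 ± 0.51, 3.55-fold lower in apetala3. Arrays 1 to 3 lay close together and array 4 was higher. WLIM1, the LIM gene measured alone that is known from many tissues, was at 0.06 (limma adjusted p = 0.703). The difference between the 2 was not tested.

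TET12 and TET13 are tetraspanins, proteins that cross the membrane and organise other proteins within it. TET13 had -1.35, -0.95, -2.01 and -1.26, with a mean of -1.39 ± 0.45, and TET12 had -1.49, -1.29, -1.999 and -0.60, with a mean of -1.34 ± 0.58. Array 3 was the lowest for both. TET7 and TET10, the other tetraspanins measured alone, had means of -0.02 and -0.10 (limma adjusted p = 0.910 and 0.675). The probe listing TET11 and TET12 together was lower than the probe of TET12 alone on every array, at -4.55, -2.85, -3.15 and -2.79.

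The remaining 4 act in hormone conjugation, stress and transcription. GH3.3 joins amino acids to auxin, which lowers free auxin. Its ratios were -2.44, -2.12, -1.70 and -1.17, with a mean of -1.86 ± 0.55 and a 3.62-fold lower level. GH3.1 was higher, at 0.97 ± 0.09 (SE, limma adjusted p = 0.00240, and up to 0.0175 without 1 array), and GH3.9 was at -0.04 (limma adjusted p = 0.854). No test of the difference between these GH3 genes was run.

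LTI30, a cold-induced dehydrin, had ratios of -1.44, -3.56, -0.57 and -2.47 and a mean of -2.01 ± 1.29. It was lower on both arrays with apetala3 in channel 2 than on both with it in channel 1. HRD, an AP2/ERF transcription factor, had -1.69, -1.501, -0.99 and -0.92 and -1.27 ± 0.38. UPB1, a bHLH factor that controls peroxidase genes in roots, had -1.501, -1.94, -1.59 and -0.56 and -1.40 ± 0.59, with array 4 nearest to 0.

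Among the 204 genes known by locus tag, the lowest were close to the 8-fold limit. The 10 lowest of all 227, which include URE, had means between -2.998 and -2.90. AT3G60710 had -3.45, -2.93, -4.16 and -1.46, with a mean of -2.998 ± 1.14. AT1G27710 had -2.80, -3.10, -3.97 and -2.08, AT1G43630 had -3.32, -2.41, -4.07 and -2.11 and AT5G48210 had -2.86, -2.76, -3.97 and -2.27. In these 4 genes array 3 was the lowest and array 4 the nearest to 0.

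AT2G39590, at -2.94 ± 0.82, had its lowest value of -4.14 on array 3, and AT2G03200, at -2.93 ± 0.88, had -4.10 there. AT3G15280 was at -3.41, -3.36, -2.53 and -2.42, lower on arrays 1 and 2, and AT2G37750 at -2.91, -3.09, -3.13 and -2.51 was the most even of the 10. AT5G13350 had -3.30, -3.74, -3.86 and -0.69, so 3 arrays were beyond 8-fold and array 4 brought its mean of -2.90 ± 1.49 into the band. Probes that list AT3G60710, AT1G43630, AT2G03200 and AT5G13350 with other genes did not show the decrease. Their means were -0.45, 0.25, 0.41 and 0.77, the last of them called higher (limma adjusted p = 0.0188). Outside the lower limit, the nearest 5 genes were AT5G58880, AT2G03410, AT5G42490, AT4G04460 and AT1G71680, with means from -3.02 to -3.10.

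At the upper limit the genes just inside were AT3G54510, AT3G57370, AT5G42830, AT5G25300 and AT5G51390, with means from -1.01 to -1.0002. AT5G42830 had -0.80, -0.35, -2.501 and -0.37 and owed its place to array 3. AT3G57370 had -0.93, -0.57, -1.97 and -0.56, again with array 3 lowest, while AT5G51390 had -0.85, -1.66, -0.50 and -0.98, with array 2 lowest. AT5G25300 and AT3G54510 had SDs of 0.36 and 0.25. Just outside were AT5G63060, AT1G69710, AT1G75300, AT1G28100 and ABR1, from -0.999 to -0.98, so neither limit marks a gap in the values.

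The genes with the smallest spread had nearly the same ratio on all 4 arrays, with both channel orders. AT3G15900 had -1.01, -1.09, -1.06 and -0.98, an SD of 0.05 and a 2.05-fold lower level. AT1G25230 had -1.79, -1.74, -1.78 and -1.63, with both of its probes lower, at -2.11 and -1.36. AT3G49540 had -1.89, -1.91, -1.88 and -1.71, and its 3 probes are described below.

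AT5G08540 had a mean of -1.87 ± 0.10, 3.67-fold lower. AT2G39320 was at -1.60 ± 0.12, AT3G51000 at -1.52 ± 0.15, AT4G01230 at -1.32 ± 0.13, AT1G22730 at -1.27 ± 0.14 and AT4G22730 at -1.08 ± 0.11. CHX20 completes the 10. In all, 42 of the 227 had an SD under 0.3 and 34 an SD over 1. The widest was AT4G33860, at -1.60, -0.36, -4.80 and -1.05, whose mean of -1.95 ± 1.97 was smaller than its SD. It was named here after its values were seen.

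Where a gene had several probes, the probes mostly disagreed. Of the 227, 218 rested on 1 probe and 9 on 2 or 3, with 20 probes in all. In 5 of the 9 at least 1 probe had a mean above 0, in 2 every probe was at or below -1, and in 1, AT1G25230, every probe was itself within the band. AT3G49540 had probes at -4.79, -0.98 and 0.23, yet its gene value varied by an SD of only 0.10 over the arrays. A small SD over arrays therefore says nothing of the agreement between probes.

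AT3G22660 had probes at -3.87 and 0.12, AT4G10890 at -3.06, -0.48 and 0.31, and AT4G14370 at -2.90 and 0.21. AT3G26870 had a probe at -3.34 on 4 arrays and a second at -0.42 on 3 arrays. The second probe's value on array 2 was at the 100-fold limit, in the direction of higher in apetala3, and was dropped, the only such value among the probes of the 227. With it kept, AT3G26870 was at 1.60 on array 2 with a mean of -0.9997, and it no longer met the criteria. The probes of AT2G25450 were at -2.23 and -0.62, and those of AT3G04360 at -3.36 and -2.01. These are averages that fall in the band between a strongly reduced probe and one near 0 for ICL, AT3G22660, AT4G14370, AT4G10890 and AT3G49540. Which probe reports the named transcript was not tested.

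**Figure D4:**
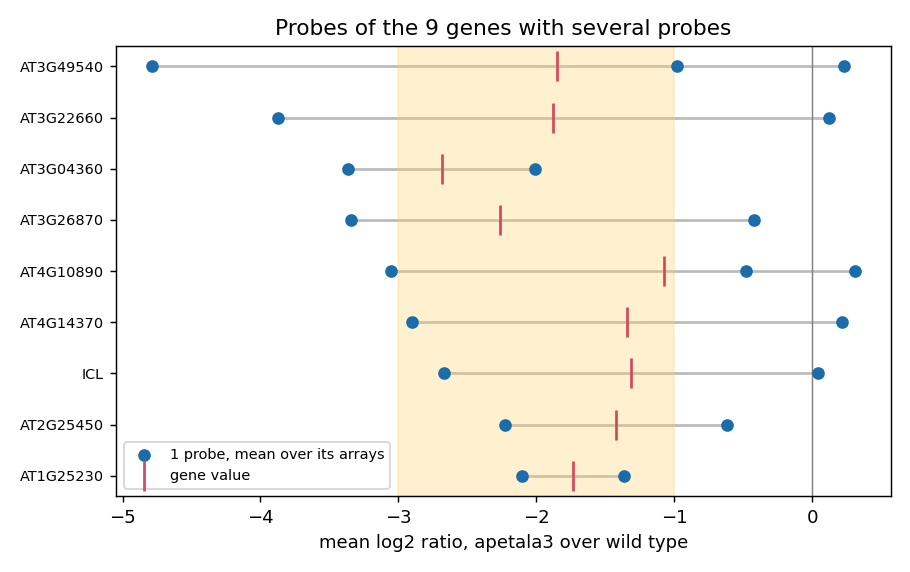
Mean log2 ratio of apetala3 over wild type for each probe (blue points) of the 9 genes with several probes, with the gene value as a red bar and the band from -3 to -1 shaded. For 5 genes a probe lies above 0, and only for AT1G25230 do all probes lie in the band.

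Probes that list a gene of the 227 together with others were not used by the rule. There were 113, listing 111 of the 227, and 104 had a value on all 4 arrays. Their median was -0.10, and they ran from -5.11 to 1.12. At or below -1 were 24 (23.1%), against 7.99% of all 7030 such probes on 4 arrays, 7.11% of all genes and probes and 6.13% of genes named alone, while 43 were above 0. They come from the same 4 arrays, so no test is given. Across these 104 probes the Pearson r with the mean of the listed gene was -0.12, as a description of spots that share arrays. The rule confines the mean of the listed gene to the band, which narrows the range over which this r is computed.

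A pair of these probes lists AT5G61680 with AT5G07410 and PPME1, a pectin methylesterase of pollen, and they had means of -5.11 and -4.40, against -1.35 ± 0.50 for the probe of AT5G61680 alone. A probe listing AT1G30350 and AT5G09280 was at -4.85, against -2.01 for AT5G09280 alone. AT5G52160, not called by limma, was at -1.43 ± 1.06 by its own probe, and a probe that lists it with AT5G62080 and AT5G07230 was at -4.07. The probe shared by AT3G53070, AT3G53050, AT3G53075 and AT3G53080 was at -4.01, against -2.30 for AT3G53070 alone and -1.64 for AT3G53050 alone. In each of these cases the shared probe was lower than the probe of the single gene. These cases were picked as the lowest after the values were seen. Shared probes also went the other way, with 43 of 104 above 0 and the highest, listing chx28 with CHX15, at 1.12.

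Genes next to each other on a chromosome were compared by their order in the RefSeq gene table. Of the 227, 85 had an adjacent protein-coding gene measured alone on 4 arrays, in 95 combinations. The neighbour was at or below -1 in 14 of them (14.7%), against 5.77% for the neighbours of other genes. The median of the neighbours was 0.14, against 0.13 for those of other genes. The 14 combinations come from 8 adjacent pairs, and these were all the pairs of 1087 with both genes at or below -1. Since membership itself requires a low ratio, a pair of 2 such genes counts from both sides.

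AT3G29050, AT3G29060 and AT3G29070 form a run of 3, at -2.28 ± 0.72, -2.70 ± 0.43 and -2.05 ± 0.94. URE lies beside AT1G67540, at -1.80 ± 0.25. The pairs AT1G27260 with AT1G27270, AT2G25450 with AT2G25460, and AT5G61610 with AT5G61620 also lie within the band. In the remaining 2 pairs the lower neighbour is outside the band, AT3G26870 beside AT3G26860 at -5.09 and AT3G61170 beside AT3G61160 at -3.53. Sequence shared between neighbours was not examined.

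The arrays differed in how large the decreases appeared. The medians of the 227 were -1.68, -1.87, -1.98 and -1.30 on arrays 1 to 4, and 188, 199, 209 and 157 of the genes were at or below -1. Array 4 held the value nearest 0 for 131 genes (57.7%), and array 3 the lowest value for 120 (52.9%). Among the 68 genes reduced at least 8-fold array 4 was also the nearest to 0 in 79.4%. Over all genes outside the 227, the 68 included, it held the highest value in 24.7%. The medians of those genes on arrays 1 to 4 were 0.14, 0.16, 0.16 and 0.10. For them the highest value need not be the nearest to 0, so the 24.7% is not a like measure. Between pairs of arrays the Pearson r over the 227 genes ran from 0.19 for arrays 3 and 4 to 0.58 for arrays 1 and 2. Over all 5170 genes it ran from 0.61 to 0.81. The band itself narrows the range of values over which the first is computed.

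**Figure D5:**
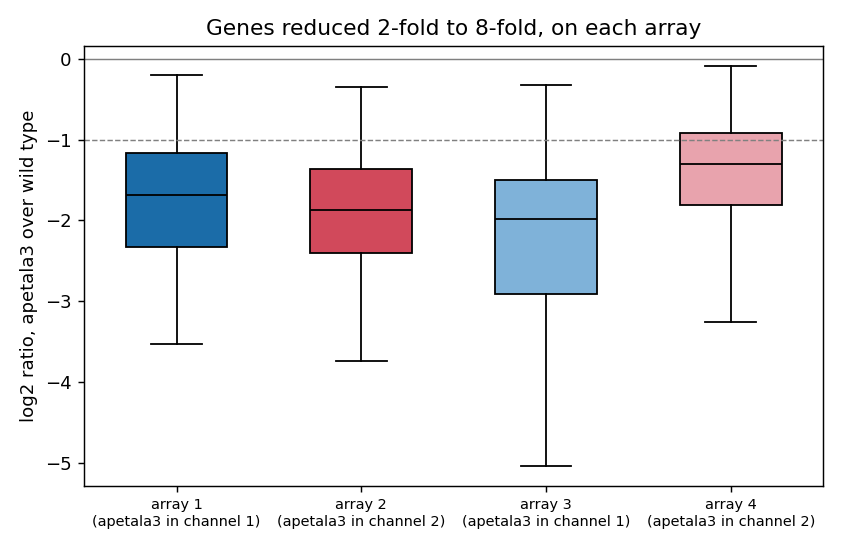
Log2 ratio of apetala3 over wild type of the 227 genes on each array, with the box from the lower to the upper quartile, a line at the median and whiskers to the lowest and highest gene. A grey line marks 0 and a dashed line -1. The medians are -1.68, -1.87, -1.98 and -1.30.

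The channel order was compared as well. The median over the 227 was -1.61 with apetala3 in channel 2 and -1.82 with it in channel 1, and 163 genes were nearer 0 in channel 2. The arrays of each order differed among themselves. Medians were -1.87 and -1.30 on arrays 2 and 4 (channel 2), and -1.68 and -1.98 on arrays 1 and 3 (channel 1). Whether the order or single arrays gave the difference was not tested. The difference between the orders passed limma's adjusted threshold of 0.05 for 0 genes, where 0% of 24697 genes and probes were called. At an unadjusted p under 0.05 there were 28 of the 227 (12.3%), against 6.98% of all genes and probes. This test sets 2 arrays against 2, and the smallest limma adjusted p over all features was 0.633.

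None of the marker genes listed for floral cell types is among the 227, and 1 of them, ATA20, is among the 9 left out by symbol. Of 31 tapetum genes 6 were measured alone and 5 were lower (limma adjusted p under 0.05), from -0.49 to -4.10, with EMS1 at 0.07. They set the direction, so that is no evidence for it. The 1 pollen gene measured of 41, TUA1, was slightly lower, at -0.44 (limma adjusted p = 0.0408). The 1 nectary gene measured of 8, SWEET9, was at -4.79 (limma adjusted p = 0.000576). Of 31 carpel and ovule genes 4 were measured and 3 were higher. The 12 petal, 12 organ identity and 10 housekeeping genes had 0 measured alone, and of 13 photosynthesis genes 3 were measured with 0 past the threshold. How far loss of these cell types accounts for the decreases was not tested.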

How the data were processed

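The authors deposited 1 log2 ratio per spot for each of 4 arrays with 2 channels, processed as in an earlier publication, per the labels. Which scanner, background correction or normalization was used is not given here in any source. The deposited columns had medians of -0.11, 0.13, -0.09 and 0.08, so their centring is unknown. The log2 scale was read from the values, which stop at a 100-fold limit. The signs of arrays 1 and 3 were turned so that every array reads apetala3 over wild type, with channel 2 taken as the numerator.

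Values of absolute size above 6.6438 were dropped, as the limit. Of 26474 gene probes, 5784 named 1 gene in the platform annotation, 7497 several and 13193 none. Probes of 1 gene were averaged per array. Symbols and neighbours came from the RefSeq gene table (assembly TAIR10.1), which held 226 of the 227 genes. The mean was tested against 0 with limma 3.58.1 in R 4.3.3 (lmFit, eBayes, Benjamini-Hochberg, threshold 0.05) over 25588 genes and probes with values on at least 3 arrays. The channel order was tested over those with 4. The procedure was tested on simulated data. The number of arrays limits the precision.

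The genes and lists were chosen with earlier results of these data known. Roles, families, shared probes, neighbours and empty spots were chosen after the values were seen. The genes named were the 10 with the lowest means, the 10 with the smallest SD, up to 4 of each keyword class, those with a symbol, the 5 nearest each limit on either side and the 5 whose probes differed most. Others are said to be named after their values were seen, and neighbours and shared probes are named as examples. No product text was in the reference, so keyword classes could use only symbols and synonyms and held 9 of the 227. Of these MGL matched a peptide class through the letters of methionine, so the roles were grouped by hand. Promoter motifs were not analysed here.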

Additional observations from a re-analysis of the deposited data

How the results depend on the processing

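The genes meeting the criteria numbered 223 to 240 without 1 array in turn, with 199 to 213 of them among the 227, and those of the 227 called by limma (adjusted p under 0.05) numbered 153 to 208, against 211 over 4 arrays. Their median ranged from -1.84 without array 4 to -1.61 without array 3. With centred arrays 247 genes met the criteria, with limit values kept 239 (226 of the 227, AT3G26870 being lost at -0.9997), and with the median over probes 226. With the arrays that had apetala3 in channel 1 alone there were 249, and with those that had it in channel 2 alone 246. With 2 arrays in the fit the called count was 77 for the channel 2 arrays alone and 166 for the channel 1 arrays alone, and over 4 arrays it was 139 at an adjusted p under 0.01. The same contrast chose the 227, and for fits with fewer arrays the share called over all genes and probes is not given. Without it, a drop such as 166 to 77 cannot be told apart from a drop over all genes and probes. Its cause was not tested, and these called counts are a description only. Of 450 values of named genes under alternatives, 445 moved by less than their SD, 5 moved further and 0 changed sign. Most of this was fixed in advance. A mean over part of the 4 arrays cannot move by a full SD. It cannot change sign either, since every gene was below 0 on all 4 arrays. Keeping limit values could change only AT3G26870, and the median over probes only genes with several probes. The count is therefore no measure of stability. With the median over probes AT3G49540 was at -0.98 and AT4G10890 at -0.48, above the limit of -1. Centring moved the median gene by -0.10, which put 9 of the 10 lowest genes, URE among them, below -3. With centring AT3G49540, AT1G25230 and AT3G15900 were at -1.95, -1.84 and -1.13. The alternative with a promoter window was not run. Each ratio sets both genotypes against each other within 1 array, so the test of the mean ratio against 0 is itself paired by array.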

Other observations

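By locus tag, the 227 genes lay on all 5 nuclear chromosomes. They made up 3.57%, 3.61%, 4.96%, 5.17% and 4.77% of the genes measured alone on chromosomes 1 to 5. On 12 of the 227 genes (5.29%) 1 array stood far from the other 3 by Dixon's criterion, against 5.74% of all 5170 genes, where chance gives about 1 in 20. A further 15 genes had a mean in the band on fewer than 4 arrays and are not part of the 227. Of probes that name several genes or none, 1070 of 19527 (5.48%) with a value on all 4 arrays met the same limits.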
